A study of Mus musculus with 6 samples.

Results

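Expression of 10 genes that are used as markers of basal, myoepithelial and mammary stem cells was examined in J110 and SSM3 cells. The genes were Trp63, Procr, Acta2, Tagln, Mylk, Cnn1, Oxtr, Sox9, Sox10 and Id4. They were taken as a named list, and all 10 were found among the 52636 genes of the count table. Of the 10 genes, 9 had a count in at least 1 library and 4 (Procr, Sox9, Mylk and Tagln) had enough counts to be tested between the lines. In brief, Sox9 and Procr were the abundant genes of the set in J110 cells and both were lower in SSM3 cells, where Procr was near 0, Mylk was lower in SSM3 cells at a low level, Tagln was low in both lines, and Trp63, Sox10, Acta2, Cnn1, Id4 and Oxtr were close to or at 0.

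J110 is a mammary tumour line from transgenic mice in which the MMTV LTR drives AIB1 cDNA, and SSM3 is a mammary tumour line from mice of a 129SvEv background. RNA from 3 biological replicates of each line, grown in culture without other treatment, was sequenced from the 3′ ends of its transcripts. Both media held insulin and hydrocortisone. SSM3 cells also received transferrin and β-mercaptoethanol, more serum and more CO2, so the culture and the line cannot be told apart. Each line is 1 tumour-derived line, so the spread between its replicates is that of its cultures and not of independent tumours.

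The mammary gland is a bilayer. Luminal cells line the ducts, and basal cells lie beneath them against the basement membrane. Most basal cells are myoepithelial, which means that they are epithelial cells with a smooth muscle contractile apparatus. They contract when oxytocin binds its receptor and so eject milk. The transcription factor p63 maintains the basal state, and cells with stem cell activity in transplantation are found within the basal layer, part of them marked by the protein C receptor, the product of Procr. SOX9 is found in luminal progenitors and in stem-like cells, and SOX10 and ID4 mark stem or basal cells. Acta2, Tagln, Mylk and Cnn1 are also expressed by vascular smooth muscle, pericytes and activated fibroblasts, so the markers of those cells are given beside them.

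Of the 10 genes, 6 had a promoter in the RefSeq sequences of GRCm38.p6 used here. The 250 bases before the RefSeq start are shown for 3 of them: Acta2 and Cnn1, contractile genes that were near 0 in both lines, and Procr, the gene that differed most. The capitals in Acta2 mark 2 sequences that are 1 letter away from a CArG box, the site bound by serum response factor, and the capitals in Cnn1 mark a SOX site.
Acta2: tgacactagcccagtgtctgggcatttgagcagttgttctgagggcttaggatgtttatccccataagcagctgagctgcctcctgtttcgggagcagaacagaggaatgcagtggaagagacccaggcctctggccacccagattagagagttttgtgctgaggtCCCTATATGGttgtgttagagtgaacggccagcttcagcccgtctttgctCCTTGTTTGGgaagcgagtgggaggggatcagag
Cnn1: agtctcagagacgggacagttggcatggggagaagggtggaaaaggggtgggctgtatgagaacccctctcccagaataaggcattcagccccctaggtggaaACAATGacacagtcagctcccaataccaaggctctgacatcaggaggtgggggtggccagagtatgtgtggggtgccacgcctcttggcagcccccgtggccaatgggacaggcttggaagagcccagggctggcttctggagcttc
Procr: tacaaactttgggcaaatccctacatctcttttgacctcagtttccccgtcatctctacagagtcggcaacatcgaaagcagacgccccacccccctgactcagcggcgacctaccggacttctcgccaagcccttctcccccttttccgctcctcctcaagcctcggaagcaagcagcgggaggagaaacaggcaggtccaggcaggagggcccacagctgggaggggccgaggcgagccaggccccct
The Acta2 sequence lies at chr19:34255374-34255623 on the reverse strand, the Cnn1 sequence at chr9:22099003-22099252 and the Procr sequence at chr2:155750967-155751216, both on the forward strand. The RefSeq starts lie downstream of the GENCODE gene starts given with the genes in the text, so each of the 3 windows reaches into the gene span of that annotation. Counted back from the RefSeq start, with -1 as the base just before it, the marked Acta2 letters were CCCTATATGG from -84 to -75 and CCTTGTTTGG from -34 to -25. No exact CArG box was found in the 6 promoters, where 1.47% of all 32851 promoters of this length hold one. With 1 mismatch allowed the share was 18.6%, and Acta2 was the only 1 of the 6 with a match. ACAAAG or ACAATG, searched on both strands as SOX sites, was found in Cnn1 alone, where 25.2% of all promoters hold 1 or the other. The GC box GGGCGG, on either strand, was in Oxtr and Id4 and in 32.7% of all promoters. These matches are letters in a window and no binding was measured.

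Total counts ranged from 4200785 to 5416305 per library, and 3 counts in a library corresponded to between 0.578 and 0.668 CPM (counts scaled to the size of the library, after TMM normalization). Under edgeR's quasi-likelihood test, adjusted by Benjamini-Hochberg, 9566 of 12284 genes (77.9%) had an adjusted p below 0.05, 4746 (38.6%) of them higher and 4820 (39.2%) lower in SSM3, so a call by itself sets no gene apart. Ncoa3, the gene of AIB1, was counted at 21.2 ± 0.166 CPM for J110 against 39.9 ± 2.65 for SSM3 (SD, n = 3 each). This gene does not check the labels, since the tags lie at the 3′ end of the mouse gene, which may be absent from the AIB1 cDNA. The line of each library was therefore taken from the labels. Of the general epithelial markers, Krt8 and Krt18 were above 900 CPM on average in both lines, while Epcam (2, 1 and 7 counts) and Cdh1 (21, 11 and 28 counts) were low in J110, beside 507 and 1374 CPM on average in SSM3. Genes high in the opposite line and without a count in the other libraries of the same line were 17 for SSM3 replicate 2, which held counts on 16 of them at 0.449% of the level there, and 21 for J110 replicate 3, with counts on 14 at 0.178%. The other 4 libraries had 1 to 9 such genes each, too few to rank the libraries.

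**Figure D1:**
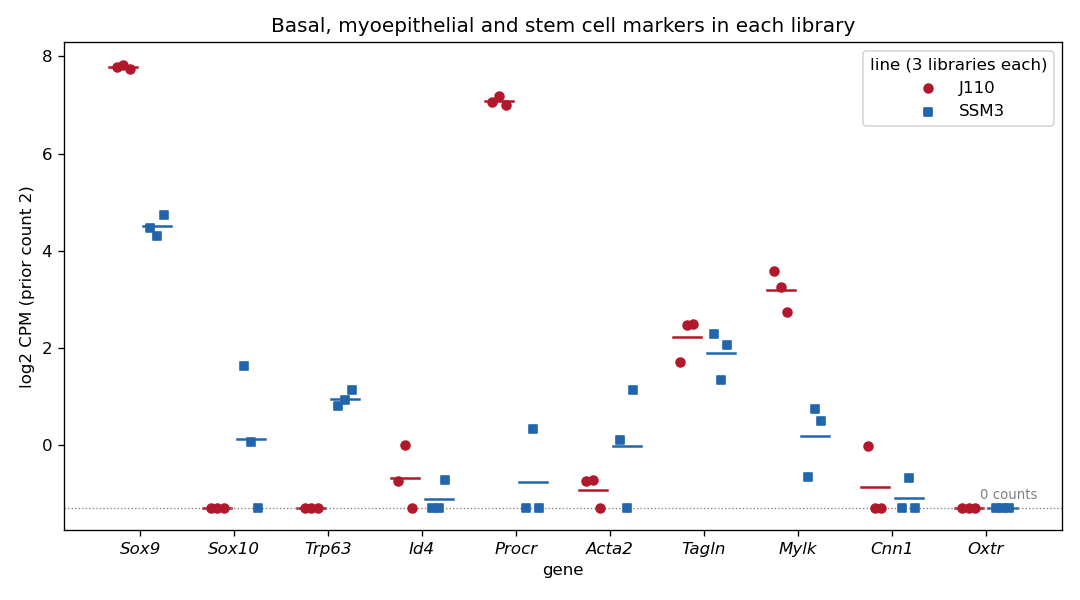
Expression of the 10 marker genes in each library, as log2 CPM with a prior count of 2. Points are libraries, 3 for each line, short bars are their means, and the dotted line is the position of 0 counts. Sox9, Procr and Mylk lie higher in all 3 J110 libraries than in any SSM3 library, Trp63 lies above the dotted line in SSM3 alone, and Tagln overlaps between the lines.

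SOX9 is an HMG-box transcription factor that, with SLUG, can bring differentiated mammary cells into a stem-like state. Sox9 (ENSMUSG00000000567, chromosome 11 of mm10 from 112782224 to 112787760, forward strand) was the highest gene of the set in both lines. Its counts were 1141, 1146 and 1025 in J110 and 98, 91 and 131 in SSM3. The lines did not overlap, and each SSM3 library still held at least 19.3 CPM, so the gene was lower in SSM3 and not absent. The means were 220.2 ± 6.39 CPM for J110 against 22.4 ± 3.41 for SSM3 (SD, n = 3 each). SSM3 against J110, the log2 fold change was -3.29 with a standard error of 0.10 (adjusted p = 4.88e-14, edgeR), which is 9.79 times lower. In bulk RNA, fewer cells of a type and less RNA per cell cannot be told apart. Among all genes tested, 7.65% had a lower fold change, and 8.13% were called and at least 8-fold lower in SSM3. With the highest level and counts above 90 in every library, Sox9 had the smallest standard error of the 4 genes tested.

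SOX10 belongs to the same SOXE group as SOX9 and is best known from neural crest cells, melanocytes and Schwann cells. Sox10 (ENSMUSG00000033006, chromosome 15 from 79154908 to 79165240, reverse strand) had no count in any J110 library and 12, 3 and 0 counts in SSM3. It was thus seen in 2 of 3 SSM3 libraries, and the lines overlapped at 0. Over the summed libraries it was at least 5.28-fold higher in SSM3, taking 3 counts over the J110 line as the floor. Of these 15 counts, 12 came from replicate 1. When genes with a single count in any library were admitted, the adjusted p for Sox10 was 0.000336 with edgeR, 0.0363 with limma-voom and 0.265 with DESeq2, and 0.159 with edgeR without SSM3 replicate 1, so the call rested on 1 library. With that filter 49.2% of 22592 genes were called.

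Other genes of Schwann cells and melanocytes were also examined between the SSM3 libraries. Of the 9 genes listed, 8 had a count in SSM3 and 6 of these were highest in replicate 1, where 36.9% of all genes tested were highest. Dct, an enzyme of melanin synthesis, had 202, 31 and 16 counts, Mitf, a melanocyte transcription factor, had 10, 2 and 1, S100b had 4, 1 and 0, and Tyr had 3, 0 and 0. Pmel, a melanosome protein, went the other way with 298, 393 and 434 counts. The summed level of the list ran from 184 to 214 CPM in SSM3 and from 23.3 to 37.8 CPM in J110. The SSM3 sum came mainly from Pmel, Mbp and Erbb3, with Dct in replicate 1, and Mbp was highest in replicate 2. Mitf was higher in J110, with 35, 40 and 44 counts. Of 6 genes tested 4 were called higher and 1 lower in SSM3, beside 38.6% and 39.2% of all genes tested. The part of these genes in the Sox10 counts was not tested.

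Sox9 was next set beside the other SOX genes. A library made from 3′ ends gives about 1 tag for each transcript, so CPM values were compared between genes without division by length. Sox9 made up 26.7% ± 0.223 of all counts on 19 SOX genes in J110 and 1.75% ± 0.194 in SSM3 (SD, n = 3 each). The counts on the whole family summed to 825 ± 17.9 CPM for J110 against 1277 ± 75.5 for SSM3. Sox4, which takes part in TGF-beta driven changes of cell state, was the most abundant member at 438 ± 15.6 CPM for J110 against 1061 ± 62.7 for SSM3 and rose by 1.28 on the log2 scale (adjusted p = 5.16e-11, edgeR). Sox12 and Sox15 were also higher in SSM3, with log2 fold changes of 5.77 and 0.90. Sox11 fell by 6.76, with 387, 416 and 385 counts in J110 and 8, 2 and 0 in SSM3, so its SSM3 level rested mainly on replicate 1. Sox13 was at least 119-fold lower with no count in SSM3. All 5 of the other SOX genes tested were thus called, 3 higher and 2 lower, beside 77.9% of all genes tested. The remaining 12 of 17 had too few counts to test. With at least 10 counts in every library 2 were called in place of 5. Sox11, Sox12 and Sox13 passed the filter on low counts through 1 line and had to differ. Sox8, the remaining SOXE gene, had no count in any library.

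**Figure D2:**
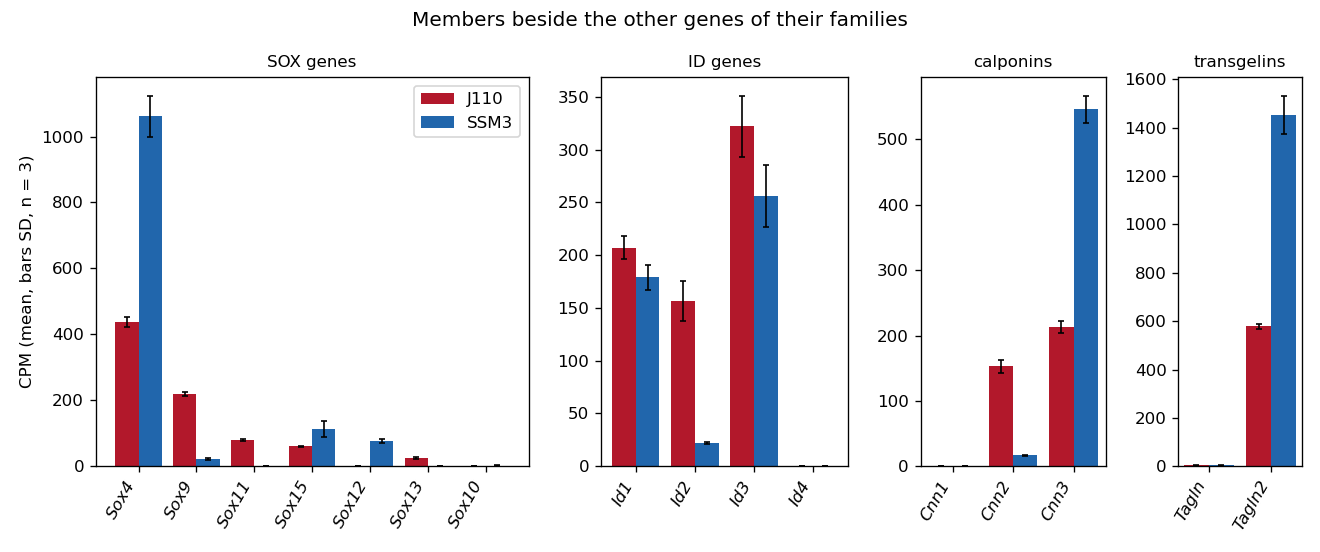
Mean CPM of member genes and other genes of their families in J110 (red) and SSM3 (blue), with bars for the SD of 3 libraries and a separate linear scale for each panel. Sox10, Id4, Cnn1 and Tagln are near 0 beside the more abundant genes of the same families, and Sox9 is the 1 member here with a visible bar in both lines.

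Procr encodes the endothelial protein C receptor, a surface protein that binds protein C and marks a population of multipotent mammary stem cells. Procr (ENSMUSG00000027611; chromosome 2, 155751117 to 155755471, forward) was counted 685, 731 and 607 times in the J110 libraries, and 0, 4 and 0 times in the SSM3 libraries. It was abundant in each J110 library, at 134 ± 9.19 CPM (SD, n = 3), and was missing from 2 of 3 SSM3 libraries. Replicate 2 held all 4 of the SSM3 counts. That library also had low counts on 16 of 17 genes high in J110 and at 0 in the other SSM3 libraries. At the share of 0.449% measured on those genes, which do not include Procr, 2.84 Procr counts would fall there, and their part in the fold change was not tested. On the log2 scale Procr fell by 8.78 in SSM3, with a standard error of 0.27 (adjusted p = 3.29e-14, edgeR), a size of fall that 1.06% of all genes tested exceeded. The ratio of the summed levels, J110 to SSM3, was 479 with a 95% counting interval from 187 to 1758. That interval is wider than the standard error of the fit would give, as SSM3 held only 4 counts. Without SSM3 replicate 2 no SSM3 count was left, and Procr was at least 427-fold lower, with 3 counts over the SSM3 line as the floor. As Procr passed the filter on low counts only through J110, a difference was bound to be found once it passed.

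The protein C pathway around Procr was split between the lines. Of 13 genes listed, 7 were tested, 3 were higher and 3 lower in SSM3 and Pros1 was not called, with a median log2 fold change of -0.10 against -0.01 over all genes tested. F2r, the thrombin receptor PAR1 through which protein C bound to its receptor can signal, was counted at 360.3 ± 13.6 CPM for J110 against 26.7 ± 7.70 for SSM3 and fell by 3.76 on the log2 scale (adjusted p = 2.37e-13, edgeR). Cav1, the caveolae protein with which the receptor is found on endothelial cells, fell by 3.08 from 443 ± 23.1 CPM. Thbd, or thrombomodulin, which activates protein C together with thrombin, had 21, 14 and 22 counts in J110 and none in SSM3 and was at least 18-fold lower. Proc, the gene of protein C itself, went the other way, at 0.268 ± 0.232 CPM for J110 against 19.1 ± 2.27 for SSM3 (log2 fold change 6.03, adjusted p = 3.79e-10, edgeR). F3, or tissue factor, and F2rl1, the receptor PAR2, were also higher in SSM3, by 2.06 and 0.94 on the log2 scale.

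Among all genes tested, the level profiles closest to Procr were those of Acan, Fosl1 and Nbl1, at Euclidean distances of 0.22, 0.49 and 0.61 between log2 CPM values over the 6 libraries. Acan, which encodes aggrecan, was counted 794, 713 and 588 times in the J110 libraries, and 0, 4 and 0 times in the SSM3 libraries, nearly the counts of Procr. The AP-1 gene Fosl1 had 0, 5 and 0 counts in SSM3 and Nbl1 had 0, 4 and 1. As the distance was taken over all 6 libraries, a shared peak in SSM3 replicate 2 follows from the choice of these genes. Closest to Sox9 were Ecm1, Camk2d and Lamb1, at distances of 0.46, 0.56 and 0.59. With 2 lines, such a profile holds little more than the level in each.

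Of 17 other genes used as markers of mammary stem cells, 12 were tested, 8 were lower and 3 higher in SSM3, and the median log2 fold change was -4.06. With at least 10 counts in every library 1 gene was called in place of 11, so most passed the filter on low counts through 1 line and had to differ, and nothing is read from the count or the median. Cdh5, a cadherin best known from endothelium, was counted at 165 ± 11.8 CPM in J110 and had 2 counts in all in SSM3, a ratio of the summed levels of 1174 with a 95% counting interval from 325 to 9701 (adjusted p = 3.08e-15, edgeR), and Msi2, an RNA-binding protein, rose by 1.25. Of the other endothelial genes, Kdr, Tie1, Tek and Emcn had no count in SSM3, and Tie1 and Emcn had none in J110 either. The summed level of the 7 endothelial genes was between 17.9 and 24.5 CPM in J110 and between 19.7 and 26.1 CPM in SSM3. In the group of transcription factors linked to the basal state and to epithelial to mesenchymal transition (EMT), 5 of the 7 tested were lower and 2 higher in SSM3, with a median log2 fold change of -2.80, and 2 were called in place of 7 with at least 10 counts in every library, so the same limit holds. Nfib was at 295 ± 24.8 CPM for J110 against 1.67 ± 0.328 for SSM3 and fell by 7.43, while Nfia rose by 0.89.

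Trp63 encodes p63, which basal cells of stratified and glandular epithelia need. Trp63 (ENSMUSG00000022510, chromosome 16 from 25683763 to 25892102, forward strand) had no count in J110 and 6, 7 and 9 counts in SSM3. It was therefore the 1 gene of the set that was seen in all 3 libraries of SSM3 and in none of J110, with a mean of 1.54 ± 0.232 CPM (SD, n = 3). The summed SSM3 level was at least 7.75-fold above the J110 floor of 3 counts over the line. With genes of a single count admitted, its adjusted p was 7.05e-06 with edgeR, 4.63e-06 with limma-voom and 0.000706 with DESeq2, and it stayed between 2.40e-05 and 0.00109 with edgeR when each library was left out in turn. Trp63 entered this test through SSM3 alone, the line where it was seen, so these values are a description of its counts. In that wider test 24.1% of the genes were called higher in SSM3. The 3′ ends sampled here do not tell the TA and ΔN forms of p63 apart, since those differ at their start.

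Of the p53 family, Trp53 was counted at 14.3 ± 2.45 CPM for J110 against 8.90 ± 1.59 for SSM3, and Trp73 had no count. Trp63 gave 15.0% ± 3.45 (SD, n = 3) of the counts on these 3 genes in SSM3. Among genes known to be controlled by p63, together with these relatives, 12 of 17 were tested, 6 were higher and 5 lower in SSM3, and the median log2 fold change was 0.40, with 5 called in place of 11 when at least 10 counts were asked of every library. Sfn, which encodes 14-3-3 sigma, rose by 4.72 (adjusted p = 5.61e-14, edgeR) from 6.62 ± 2.40 to 176 ± 11.1 CPM, and Perp, a desmosome protein, fell by 2.43 (adjusted p = 8.84e-14, edgeR) from 374 ± 14.7 to 69.4 ± 4.91 CPM. The list therefore did not move as 1 group.

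Keratins, integrins and laminins that basal cells carry were mixed in the same way, with 9 lower and 5 higher in SSM3 of 15 tested and a median log2 fold change of -0.50. The defining basal keratins Krt5 and Krt14 were low. Krt15 and Krt6a of the same list were abundant in SSM3, at no less than 651 and 109.6 CPM in each library, against at most 1.46 and 1.04 CPM in J110. Krt5 had at most 2 counts in any library, and Krt14 was counted 8, 9 and 5 times in the J110 libraries, and 35, 14 and 35 times in the SSM3 libraries and was 3.99 times higher there (adjusted p = 0.000231, edgeR). Itga6, the integrin CD49f used to sort basal cells, was present in both lines at 572 ± 16.6 and 345 ± 7.25 CPM and fell by 0.73. Vim, an intermediate filament gene of mesenchymal and basal cells, was at 5140.4 CPM on average in J110 and fell by 9.07. Trp63, Krt14, Krt15 and Krt6a were thus higher in SSM3 while Procr, Sox9 and Vim were higher in J110.

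ID4 is an inhibitor of DNA binding that keeps basal cells from expressing luminal genes. Id4 (ENSMUSG00000021379, chromosome 13 from 48261228 to 48266026, forward strand) was counted 1, 3 and 0 times in the J110 libraries, and 0, 0 and 1 times in the SSM3 libraries. Both lines overlapped at 0, and the ratio of the summed levels, J110 to SSM3, was 3.78 with a 95% counting interval from 0.375 to 186, so no difference was detectable at this depth. The other ID genes were abundant in both lines, and Id4 gave at most 0.0837% of the counts on the 4 ID genes in any library. Id3 was at 322 ± 29.1 CPM for J110 against 256 ± 29.1 for SSM3 and Id1 at 207 ± 10.8 and 179 ± 11.9 CPM. Both fell, by 0.33 (adjusted p = 0.00288, edgeR) and 0.21 (adjusted p = 0.021), but with library size scaling alone the falls were 0.16 and 0.04 with adjusted p values of 0.14 and 0.675. Id2 fell by 2.83. Of the E proteins, which ID proteins bind, Tcf12 and Tcf3 were higher in SSM3 by 0.72 and 0.24, and Tcf4 fell by 0.45. All 6 genes of this list were called, 4 lower and 2 higher, and 2 lower and 2 higher under library size scaling.

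Acta2 encodes smooth muscle actin, the most used marker of myoepithelial cells. Acta2 (ENSMUSG00000035783, chromosome 19 from 34241090 to 34255590, reverse strand) was counted 1, 1 and 0 times in the J110 libraries, and 3, 0 and 9 times in the SSM3 libraries. No library reached 2 CPM, 1 library of each line had none, and the lines overlapped. The ratio of the summed levels, SSM3 to J110, was 6.34 with a 95% counting interval from 1.41 to 58.3. Of the 12 SSM3 counts, 9 came from replicate 3, and with genes of a single count admitted the adjusted p was 0.0389 with edgeR, 0.162 with DESeq2 and 0.23 with limma-voom, and 0.569 with edgeR without that library. Leaving out any 1 of the J110 libraries gave adjusted p values of 0.0608, 0.0607 and 0.218. A difference in Acta2 was therefore not established. Cytoplasmic actins were abundant, with Actb and Actg1 together at 16344 ± 1308 CPM for J110 against 10234 ± 477 for SSM3. The muscle actins Acta1, Acta2, Actc1 and Actg2 together reached 2.39 ± 0.373 and 1.03 ± 0.897 CPM (SD, n = 3 each).

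Tagln encodes transgelin, an actin-binding protein of smooth muscle. Tagln (ENSMUSG00000032085, chromosome 9 from 45929619 to 45936058, reverse strand) was counted 15, 26 and 25 times in the J110 libraries, and 20, 10 and 19 times in the SSM3 libraries. The libraries of the lines were interleaved, at 4.42 ± 1.32 CPM for J110 against 3.45 ± 1.20 for SSM3 (SD, n = 3 each). The log2 fold change was -0.35 with a 95% interval from -1.05 to 0.35 (adjusted p = 0.343, edgeR), so no difference was detectable beyond the spread between replicates. Of its 1988 exon bases, 1241 are shared with Gm48529 and 108 with Pcsk7, both on the opposite strand. Gm48529 had 5 to 8 counts and Pcsk7 19 to 41 in each library, so the Tagln value is uncertain in either direction. The related gene Tagln2, found in most cell types, was at 578 ± 11.7 CPM for J110 against 1452 ± 79.9 for SSM3 and rose by 1.33 (adjusted p = 2.28e-11, edgeR).

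Mylk encodes the myosin light chain kinase that starts smooth muscle contraction when calcium rises. Mylk (ENSMUSG00000022836, chromosome 16 from 34745210 to 35002420, forward strand) was counted 60, 46 and 30 times in the J110 libraries, and 1, 6 and 5 times in the SSM3 libraries. Every J110 library lay above every SSM3 library, but the J110 libraries themselves were spread between 6.26 and 11.6 CPM. The means were 8.98 ± 2.66 and 0.831 ± 0.545 CPM (SD, n = 3 each), and on the log2 scale Mylk fell by 3.38 (adjusted p = 1.11e-06, edgeR), with a standard error of 0.41 and 95% limits of -4.24 and -2.52. Without J110 replicate 3 and SSM3 replicate 2 together the value was -3.98. Telokin, a short protein made from the end of the same gene, shares its 3′ end, so these counts do not separate it from the kinase. Like Procr, Mylk passed the filter through J110 alone.

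Cnn1 encodes calponin 1, a late marker of smooth muscle and myoepithelial differentiation. Cnn1 (ENSMUSG00000001349, chromosome 9 from 22099216 to 22109630, forward strand) was counted 3, 0 and 0 times in the J110 libraries, and 0, 1 and 0 times in the SSM3 libraries. Both lines held at most 3 counts in all, and no fold change is given. The other calponins were well expressed, Cnn2 at 153 ± 9.58 CPM for J110 against 16.8 ± 0.948 for SSM3 and Cnn3 at 213 ± 9.29 and 546 ± 20.8 CPM (SD, n = 3 each). They moved apart, as Cnn2 fell by 3.18 and Cnn3 rose by 1.35.

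OXTR is the oxytocin receptor through which suckling triggers contraction. Oxtr (ENSMUSG00000049112, chromosome 6 from 112473683 to 112489943, reverse strand) had no count in any of the 6 libraries. A count of 0 allows up to 3 counts, or 0.578 to 0.668 CPM in a library, for counting error only. Of 22 genes of the signalling chain, Plcb2 and Cacna1c had no count in any library, Oxt, the gene of oxytocin, had 3 counts in all, and the 19 others were tested. Of these, 10 were lower and 6 higher in SSM3, with a median log2 fold change of -0.26. Myl12a, a regulatory light chain of myosin, fell by 0.84 from 803 ± 20.4 to 449 ± 53.3 CPM. With library size scaling alone 8 were lower and 6 higher, since Gna11 and Rhoa were no longer called.

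Contractile genes beyond the members did not follow 1 direction. All 14 that could be tested of 22 were called, 7 higher and 7 lower in SSM3, a median log2 fold change of -0.12. Actn1, an actin crosslinker, was at 1049 ± 36.2 CPM for J110 against 271 ± 8.92 for SSM3 and fell by 1.95. Cald1 and Tpm1, named here after their values were seen, fell by 4.23 and 3.06. Genes best known from smooth muscle were at or near 0, as Myh11 had 1 count in all, Actg2 had 1, Des had 0 in J110 and 2, 3 and 3 in SSM3, and Myl9 had 4, all in SSM3 replicate 3. SSM3 replicate 3 was thus the library with the most counts of Acta2, Myl9 and Actg2. Myocd, the cofactor that drives smooth muscle genes with SRF, had no count in any library. Srf itself was at 49.8 ± 6.12 and 58.1 ± 4.46 CPM (adjusted p = 0.0711, edgeR), and its cofactor genes Mrtfa and Mrtfb rose by 0.43 and 0.31. In the same list Mef2d rose by 0.33, while Tead1 and Mef2a fell by 1.15 and 1.88, so 3 were higher and 2 lower of 6 tested, and with library size scaling 4 were higher as Srf was called.

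Markers of cells that could bring contractile transcripts were examined in the same libraries. Of 8 pericyte and vascular smooth muscle genes, Pdgfrb and Kcnj8 had no count in any library, and 1 was tested, Notch3, which was at 52.0 ± 2.83 CPM in SSM3, had no count in J110 and was at least 261-fold higher. The summed level was between 0 and 1.35 CPM in J110 and between 50.5 and 55.5 CPM in SSM3. Of 10 fibroblast genes, no library held Col1a2 or Lum, and Col1a1 was counted 5, 6 and 5 times in J110 and never in SSM3. The sums of 52.6 to 65.9 CPM in J110 and 1337 to 1480.4 CPM in SSM3 were made up mainly of Col5a2 and of Dcn. Of 6 leukocyte genes, Ptprc had 2 counts in all and Cd68, which fell by 3.70, was the 1 tested, with sums of 15 to 22.2 CPM in J110 and 1.39 to 2.34 CPM in SSM3. Vwf, the 1 endothelial gene called, rose by 3.17 to 3.82 ± 0.769 CPM. In the luminal list 15 of 16 tested genes were higher in SSM3 and 1 lower, beside 38.6% and 39.2% of all genes tested. Among those higher were Krt19 and Krt8, by 8.65 and 0.83. With at least 10 counts in every library 9 luminal genes were called in place of 16. Part of the list thus passed the filter on low counts through 1 line and had to differ, so nothing is read from the split. The part of such cells in the contractile gene counts was not tested.

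**Figure D3:**
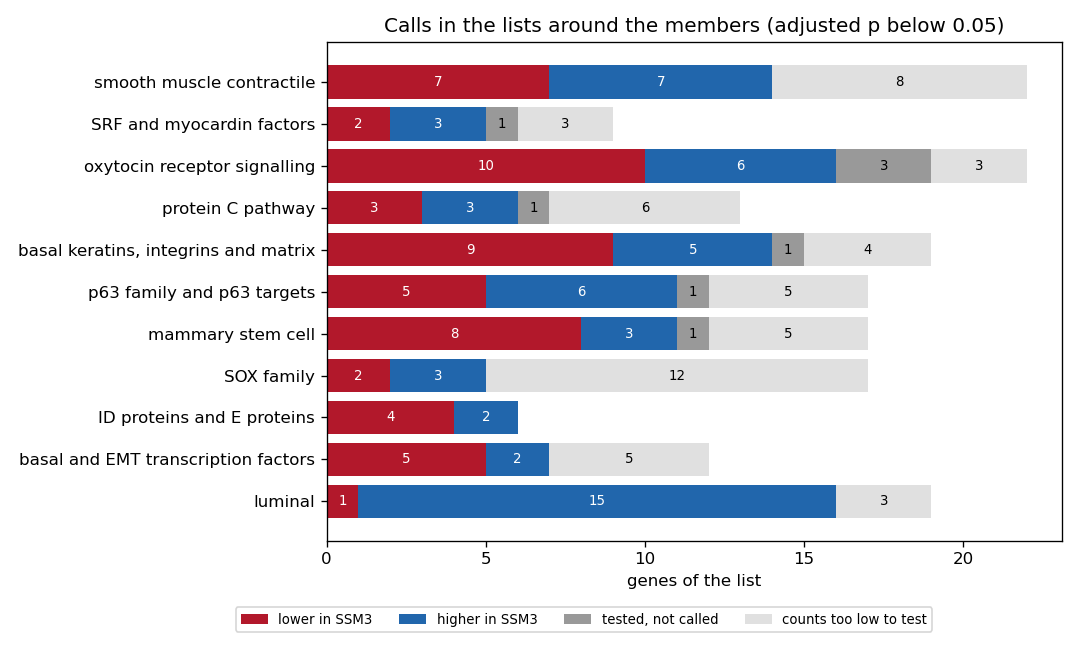
Number of genes of each list that were lower in SSM3 (red), higher in SSM3 (blue), tested and not called (grey) or too low to test (light grey). The luminal list is nearly all blue, with 15 of 16 called higher, while the contractile list is split 7 to 7. Part of the luminal genes passed the filter on low counts through 1 line only and had to differ.

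Within the set, the order of levels differed between the lines. In J110 the order was Sox9, Procr, Mylk and Tagln, whose ranges did not overlap, followed by Id4, Cnn1 and Acta2, which overlapped at 0, and by Trp63, Sox10 and Oxtr with no count. In SSM3 Sox9 was followed by Tagln and then Trp63, whose ranges of 2.12 to 4.45 and 1.34 to 1.79 CPM did not overlap, while Trp63, Sox10, Mylk, Acta2, Procr, Cnn1 and Id4 each overlapped with the next. The 10 genes together summed to between 352 and 386 CPM in J110 and between 25.9 and 34.6 CPM in SSM3, and most of either sum was Sox9 and, in J110, Procr. The 4 contractile genes Acta2, Tagln, Mylk and Cnn1 summed to 13.7 ± 1.98 CPM for J110 against 5.17 ± 1.49 for SSM3 (SD, n = 3 each). Mylk made up 64.5% of that sum in J110 and 18.2% in SSM3, and Tagln 33.4% and 66.6%.

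Between the lines, 3 of the 4 genes tested were called and all 3 were lower in SSM3, where 39.2% of all genes tested were called lower and 38.6% higher. The libraries of the lines did not overlap for the same 3 genes, as for 79.6% of all genes tested. Sox9 and Tagln, the 2 with at least 10 counts in every library, went 1 called and 1 not called. No member tested was higher in SSM3, while Trp63, which was too low for that test, had counts in SSM3 alone.

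**Figure D4:**
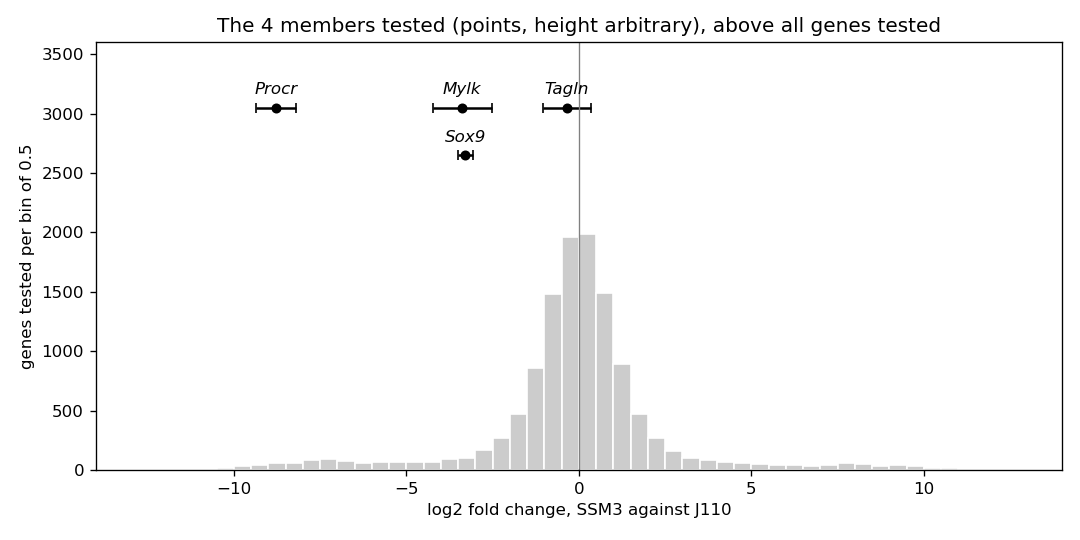
Log2 fold changes, SSM3 against J110, of the 4 genes tested (points with 95% intervals, drawn at arbitrary heights) above the distribution of all 12284 genes tested in bins of 0.5. Procr at -8.78, Mylk at -3.38 and Sox9 at -3.29 lie in the lower tail, and the Tagln interval crosses 0. The Procr interval is that of the fit and is narrower than the counting interval on its 4 SSM3 counts.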

How the data were processed

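RNA of 3 biological replicates of each line was sequenced as 3′ tags. The authors removed low-quality reads and trimmed the rest with cutadapt 2.1, mapped them to mm10 with HISAT2 2.0.4 and deposited raw counts per Ensembl gene from featureCounts (Subread 2.0.0). The strand setting and the treatment of reads on shared exons are not given in the sources used here. Groups came from the sample titles, and p-values measure the spread between these cultures. Symbols and coordinates came from GENCODE M21, which matched 52403 identifiers (99.6%), and exon overlaps from its gene models.

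Low genes were dropped by filterByExpr, libraries were scaled by TMM, and lines were compared in edgeR 4.0.16 (R 4.3.3) by its quasi-likelihood test, with a threshold of 0.05 for the Benjamini-Hochberg adjusted p over all genes tested. The standard error was the absolute log2 fold change divided by the square root of F. A line with no count was set to 3 counts over that line and the fold given as "at least". With 1 to 3 counts in a line, and for Procr with 4, ratios carry an exact 95% interval, for counting error only. Counts in a library on genes high in the opposite line were summed over genes, the 10 themselves left out, of at least 100 CPM there and no count in the other libraries of the same line. On simulated counts of 11948 genes, 81 of 96 genes changed by 1 and 97 of 97 changed by 2 on the log2 scale were recovered, and 4 of 11755 unchanged genes were called. The simulation changed only 200 genes, evenly up and down. It therefore does not reproduce data in which 77.9% of genes were called, and it checks the working of the test alone.

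The 10 genes, the other gene lists and the tests were chosen with earlier results of these data known. Named genes were all 10, the defining markers, genes that share exons with a member, in each list the 2 called genes of highest mean CPM (all called genes for the SOX, ID and E protein, SRF and protein C lists), and the 3 nearest profiles of members with at least 10 CPM. Any further gene was picked with its values in view. No set test was made. Alternatives used DESeq2 1.42.0, limma-voom (limma 3.58.1), other scalings and filters, glmTreat, a block on replicate number, and fits without single libraries. A few genes of the lists, and part of the genotype of 1 line, are not reported here.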

Additional observations from a re-analysis of the deposited data

How the results depend on the processing

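Sox9, Procr and Mylk stayed lower in SSM3 with an adjusted p below 0.05 in every alternative that tested them, between -3.42 and -3.12 for Sox9 and between -3.98 and -2.96 for Mylk on the log2 scale. Procr ranged from -12.42 to -8.19, and its lowest values came from fits without SSM3 replicate 2, which leave no SSM3 count. Tagln was called in no alternative, with adjusted p values of 0.125 or more, values from -0.597 to -0.09 without single libraries, and a sign that turned to a log2 fold change of 0.036 without J110 replicate 3 and SSM3 replicate 2. Members called numbered 6 in place of 3 with at least 1 count in any library, as Trp63, Sox10 and Acta2 were added. In that wider test 49.2% of 22592 genes were called. With at least 10 counts in every library, which removes Procr and Mylk by construction, Sox9 was called and Tagln was not. There 7288 of 9686 genes were called. That filter also lowered the calls in the other lists from 121 to 74, and glmTreat for changes above 2-fold lowered the calls over all genes from 9566 to 4272. In single lists, 270 of 288 counts stayed within 1.5 times. With at least 10 counts in every library, calls went from 11 to 1 for mammary stem cell genes, from 7 to 2 for basal and EMT transcription factors, from 11 to 5 for p63 targets, from 5 to 2 for SOX genes, from 14 to 9 for basal keratins, integrins and matrix and from 16 to 9 for luminal genes. With glmTreat they went from 6 to 1 for ID and E proteins, from 16 to 9 for oxytocin signalling and from 14 to 8 for basal keratins, integrins and matrix. SRF and myocardin factors went from 5 to 2 with glmTreat and to 3 without J110 replicate 3 and SSM3 replicate 2. Schwann and melanocyte genes went from 5 to 3 with at least 10 counts in every library. The other moves were in lists with 1 or 2 genes called. Library size scaling in place of TMM shifted the median over all genes, on the log2 scale, from -0.01 to 0.16. Among genes below the filter, Cnn1 turned to 1.897 without J110 replicate 1. Same-numbered replicates of the lines share only a number, with correlations of 0.012, 0.015 and 0.027 between their deviations. With the replicate number as a block, 9481 genes and 3 members were called, and Sox9 was at -3.295. Another library scaling multiplies every gene of a library by 1 factor, so it says little about the order of levels within a line. The refits of genes below the filter, with DESeq2, with limma-voom or without single libraries, were chosen after seeing the data. Depth limits the 6 genes below the filter, and those admitted through 1 line alone, Trp63 and Sox10, say nothing of stability by their calls.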

Other observations

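Within SSM3, replicate 2 had the fewest counts of Krt14 (35, 14 and 35 counts in replicates 1, 2 and 3), Krt17 (11, 2 and 14), Tagln (20, 10 and 19) and Acta2 (3, 0 and 9), while Trp63 (6, 7 and 9) and Krt15 (2922, 3159 and 3354) were not lowest there, and Mylk (1, 6 and 5) and Cnn1 (0, 1 and 0) were highest there. Of the 17 listed genes of basal keratins, integrins and matrix with counts in SSM3, 8 were lowest in replicate 2, where 31.6% of all genes tested were, and of the 19 listed contractile genes with counts in SSM3 7 were lowest there and 8 in replicate 1. These genes were picked after their values were seen, the counts are small and no test was made.

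Of the keratins of the basal and stratified type, Krt15 had 0, 0 and 7 counts in J110 and at least 2922 in each SSM3 library (log2 fold change 10.40, adjusted p = 1.13e-15, edgeR's quasi-likelihood test), and Krt6a had 0, 2 and 5 counts in J110 and 492, 564 and 651 in SSM3 (7.93, adjusted p = 3.60e-14), while Krt5 had at most 2 counts in any library. In J110, the 7 Krt15 counts and 5 of the 7 Krt6a counts fell in replicate 3. That library held counts on 14 of 21 genes high in SSM3 and at 0 in the other J110 libraries, Krt15 among them, at 0.178% of their level. The part of such counts in these fold changes was not tested, and without replicate 3 no J110 count of Krt15 is left.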
